A study of Mus musculus with 6 samples.

Results

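The Aurora kinases and their partners at the spindle, the centromere and the cleavage furrow were followed through 10 genes of 24062 in the count table: Aurka, Aurkb, Birc5, Incenp, Cdca8, Tpx2, Prc1, Ect2, Anln and Racgap1. Each gene was taken by its symbol, and all 10 had enough counts to be among the 16904 genes tested. RNA was sequenced from whole retinae of 3 Rb1/p107/Hells triple knockout (TKO) and 3 Rb1/p107 double knockout (DKO) mice at postnatal day 21, whose strain is C57BL/6 in the labels and C57BL/6N in the study's methods. Both genotypes carried Chx10-Cre, floxed Rb1 and a germline p107 deletion, and only the TKO mice also carried floxed Hells, the gene of a chromatin remodeler. The study asked which transcripts change when Hells is lost from retinae in which loss of Rb1 and p107 leads to ectopic division and retinoblastoma. Chx10-Cre acts in a mosaic of retinal progenitors, so each retina also held cells that did not recombine, and no retina with intact Rb1 and p107 was analysed here.

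Aurora A and Aurora B are related kinases of mitosis with different partners and places. Aurora A works at spindle poles and is activated there by TPX2, whereas Aurora B belongs to the chromosomal passenger complex, which is built on the scaffold INCENP together with survivin (Birc5) and borealin (Cdca8) and corrects the attachment of chromosomes before it moves to the midzone at anaphase. There PRC1 bundles microtubules, RACGAP1 recruits the RhoA activator ECT2, and anillin (Anln) organizes the contractile ring that divides the cell. The transcripts of many such genes peak in the G2 and M phases, and a short promoter element called CHR, bound by repressor and activator complexes of the cell cycle, is a known feature of that class. Most cells of a mature retina have left the cell cycle.

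For 7 of the 10 genes a RefSeq promoter was given (build GRCm38.p6), as a window of 250 bases before to 50 after the start of transcription, and 4 stretches of 120 bases (90 before and 30 after the start) are shown because 3 of them hold both a CHR and a CCAAT box and the other holds neither. They run 5′ to 3′ on the strand of the gene, and capitals mark matches on either strand to CHR (TTTGAA or TTCGAA) and to the CCAAT box (CCAAT, or ATTGG where it lies on the other strand). The stretches are chr7:80294361-80294480 on the plus strand for Prc1, chr4:124936888-124937007 on the minus strand for Cdca8, chr15:99651627-99651746 on the minus strand for Racgap1 and chr11:117849147-117849266 on the plus strand for Birc5.
Prc1: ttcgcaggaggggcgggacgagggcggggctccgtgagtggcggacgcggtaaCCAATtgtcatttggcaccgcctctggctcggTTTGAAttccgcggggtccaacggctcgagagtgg
Cdca8: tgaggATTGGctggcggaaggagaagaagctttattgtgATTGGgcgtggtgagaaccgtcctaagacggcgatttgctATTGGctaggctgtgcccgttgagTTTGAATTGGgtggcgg
Racgap1: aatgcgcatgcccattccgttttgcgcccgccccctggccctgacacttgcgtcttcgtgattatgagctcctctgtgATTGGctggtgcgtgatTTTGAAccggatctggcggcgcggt
Birc5: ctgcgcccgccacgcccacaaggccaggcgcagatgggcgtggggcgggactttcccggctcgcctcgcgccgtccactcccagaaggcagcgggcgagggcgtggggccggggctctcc

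Within the whole windows, a CHR match was found in 6 of the 7 promoters (Aurka, Ect2, Cdca8, Prc1, Anln and Racgap1), and 19.4% of all 27025 promoters held one. The CCAAT box was present in 5 of 7, namely in Aurka, Ect2, Cdca8, Prc1 and Racgap1, against 37.9% of all promoters. A match to an E2F site (TTCCCGC or TTCGCGC or TTGCCGC or TTGGCGC) was found in Ect2 alone among the 7, where it overlaps a CCAAT box, against 9.69% of all promoters. The last base of the CHR in Cdca8 is also the first of a CCAAT match on the other strand. A match describes the letters of a window and not a bound site.

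In the count table, the libraries held between 10343907 and 14203098 counts. Normalized counts of Hells itself were 60.8, 68.4 and 83.4 for TKO replicates 1 to 3 and 678, 523 and 395 for DKO replicates 1 to 3. Each library thus lay on the side of its label. The study describes Hells as a gene under RB/E2F control. Its log2 fold change (-2.91) lay between those of Top2a (-3.21) and Ccnb1 (-2.89), genes of cycling cells that were not deleted. At the level of the whole gene, deletion and fewer dividing cells therefore cannot be told apart. Retinal identity was clear from 7 rod markers, whose summed level ran from 202327 to 393704 normalized counts in TKO and from 68564 to 129946 in DKO retinae, and all 7 were called higher in TKO. Lens markers summed to 3470 in TKO replicate 2, 626 and 519 in the other TKO libraries and 105 to 109 in DKO, and 4 of 8 were called higher. The lens gene Cryaa had 1464 normalized counts in TKO replicate 2, 299 and 218 in the other TKO libraries and 5.25 to 14.7 in DKO, and Lim2 was at 0 in 4 libraries. Microglial markers summed to between 899 and 1480 in TKO and between 1884 and 2774 in DKO, and 5 of 7 were called lower. In all 6 pairs of replicates the counts differed beyond counting error, with a chi-square of 8.61 to 25.3 for each degree of freedom. The sources used here do not say whether retinae came from separate litters, so p-values measure the spread between these retinae.

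All 10 genes had lower transcript levels in TKO than in DKO retinae, and for each the highest TKO retina lay below the lowest DKO retina. A call required that the quasi-likelihood test of edgeR, adjusted over all genes tested, gave a p of 0.05 or less, that the log2 fold change was 1 or more in either direction and that the mean reached 10 normalized counts, and 9 of the 10 were called lower, where 4.38% of all genes tested were. The adjusted p alone was passed by all 10 (0.00571 to 0.0117), where 9.2% of all genes passed it in the lower direction. Groups that did not overlap in this direction were found for 20.6% of all genes. The median log2 fold change was -2.50 for the 10 genes and -0.011 for all genes tested. Incenp was the gene that missed the fold change criterion. Without TKO replicate 2, 6 of the 10 were called lower and the median log2 fold change was -2.38. When DKO replicate 1 or DKO replicate 2 was left out instead, 8 were called lower. With each of the other retinae left out in turn, 9 were called lower. Whole retinae were sequenced, so fewer dividing cells and less of each transcript per dividing cell cannot be told apart. The rod, lens and microglial levels given above moved with the genotypes too, and their part in these differences was not tested.

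**Figure D1:**
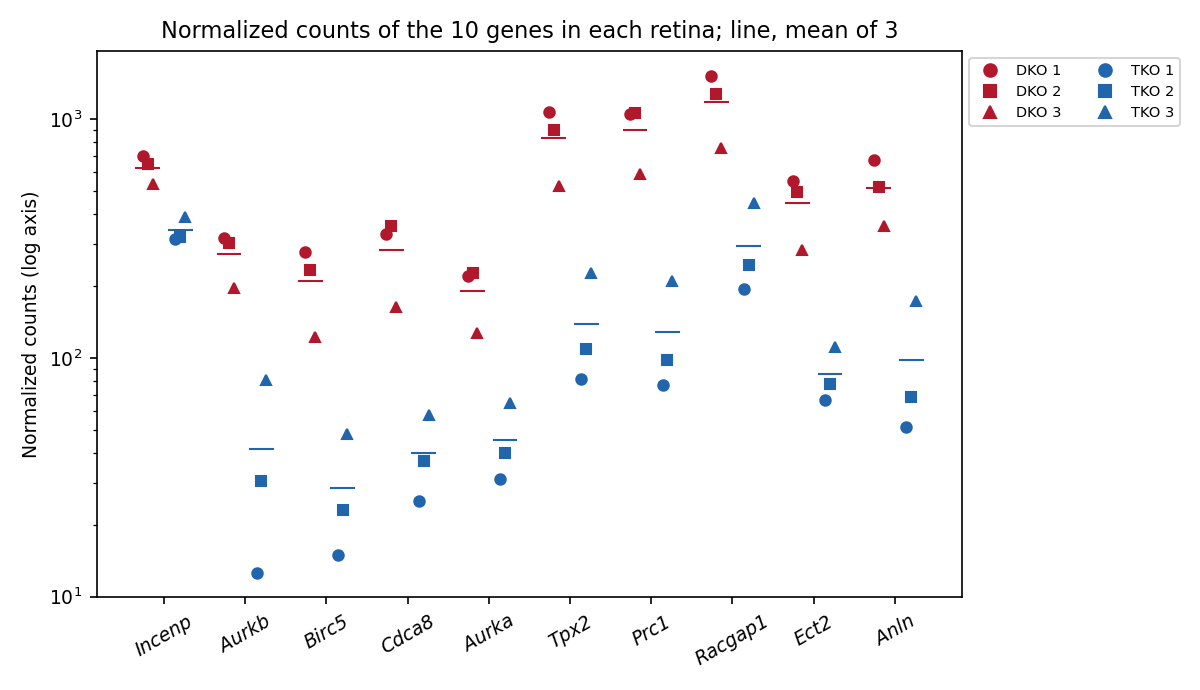
Normalized counts of each of the 10 genes (log axis) in the 3 TKO and 3 DKO retinae, 1 point per retina, with a bar at the mean of each genotype. The points of the genotypes do not overlap for any gene, and the gap is narrow for Incenp.

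Of the kinases, Aurka, which encodes Aurora A (chromosome 2, 172356190 to 172370535, minus strand, GRCm38), was at 31.0, 40.0 and 65.0 normalized counts (TKO replicates 1, 2 and 3) and at 220, 227 and 127 (DKO replicates 1, 2 and 3). The means were 45.3 ± 17.7 and 191 ± 55.8 (SD, n = 3 each), which gave a log2 fold change of -2.08 ± 0.322 (SE; edgeR adjusted p = 0.00780), and the TKO mean was 23.7% of the DKO mean. Its activator Tpx2 (chromosome 2, 152847964 to 152895321, plus strand) encodes a target of importins that is released from them around chromatin. Tpx2 had 81.4, 109 and 227 normalized counts in the TKO retinae and 1072, 900 and 527 in the DKO retinae. The log2 fold change of Tpx2 was -2.59 ± 0.385 (SE; edgeR adjusted p = 0.00733), leaving 16.7% of the DKO level. For both genes replicate 3 of each genotype lay nearest to the other genotype.

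In the passenger complex, all 4 genes passed the test, and the fold changes of the kinase and its 2 small partners (6.67-fold to 7.41-fold lower) were larger than that of the scaffold (1.84-fold lower), a difference that was not tested. Aurkb, which encodes Aurora B (chromosome 11, 69045647 to 69051664, plus strand), had 12.6, 30.5 and 81.0 normalized counts in TKO and 319, 305 and 196 in DKO retinae. These values rest on 11, 29 and 66 raw counts in the TKO libraries, and the highest TKO retina held 6.42 times the lowest, the widest relative spread among the 10 genes. The log2 fold change of Aurkb was -2.74 ± 0.503 (SE; edgeR adjusted p = 0.0117). Its call was lost without TKO replicate 2 (edgeR adjusted p = 0.0590), and also when DKO replicate 1 (0.0521) or DKO replicate 2 (0.0532) was left out, with log2 fold changes between -2.56 and -2.65 in these fits, and without TKO replicate 3 the log2 fold change was -3.64.

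Birc5 encodes survivin, a small member of the inhibitor of apoptosis family that reads a phosphorylated histone tail at the centromere (chromosome 11, 117849251 to 117855743, plus strand). It had 14.9, 23.2 and 47.9 normalized counts in TKO and 278, 233 and 123 in DKO retinae. The log2 fold change was -2.89 ± 0.437 (SE; edgeR adjusted p = 0.00752), or a 7.41-fold lower mean level, the largest fold of the 10 genes. This rank was not stable: without TKO replicate 3 the log2 fold change was -3.45 for Birc5 and -3.64 for Aurkb. Without DKO replicate 1 it was -2.64 for Birc5 and -2.71 for Cdca8. Cdca8 encodes borealin, which joins survivin and INCENP in a helical bundle (chromosome 4, 124918465 to 124939311, minus strand). Its values were 25.2, 36.8 and 57.7 in TKO and 329, 358 and 164 in DKO retinae, with a log2 fold change of -2.83 ± 0.372 (SE; edgeR adjusted p = 0.00680). Exons of Cdca8 share 232 bp with the gene 9930104L06Rik on the opposite strand, which had a mean count of 328 and a log2 fold change of 0.14. The strand setting of the counting is not given in the sources used here, and the effect of the overlap was not tested.

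The scaffold Incenp (chromosome 19, 9872296 to 9899551, minus strand, on the same chromosome as Hells) had 315, 320 and 391 normalized counts in TKO and 701, 649 and 534 in DKO retinae. From means of 342 ± 42.7 and 628 ± 85.2 (SD, n = 3 each) came a log2 fold change of -0.88 ± 0.135 (SE; edgeR adjusted p = 0.00766), a 1.84-fold lower level. The TKO retinae of Incenp spanned 1.24-fold, less than for any other of the 10 genes. With library totals as the only scaling, the log2 fold change was -1.03 and Incenp also met the fold change criterion.

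With these unequal changes, the proportions of the complex's transcripts in whole retinae differed between the genotypes. Levels of different genes were set side by side per kilobase of merged exon length and scaled for depth (FPKM), and each subunit's share of the sum of the 4 was taken in each retina. Incenp made up 84.3%, 75.3% and 63.2% of the sum in TKO replicates 1, 2 and 3 and 39.0%, 38.3% and 47.9% in DKO replicates 1, 2 and 3. Its mean share was 74.3% ± 10.6 for TKO and 41.7% ± 5.35 for DKO (SD, n = 3 each), and the genotypes did not overlap. The share of Aurkb was 4.96%, 10.6% and 19.2% in TKO retinae and nearly the same in all DKO retinae, from 25.8% to 26.5%. Birc5 accounted for 7.28% ± 2.40 and 17.0% ± 2.86, and Cdca8 for 6.89% ± 1.11 and 15.1% ± 2.71. The order of Birc5 and Cdca8 depends on the length used. With the longest annotated transcript as length, Cdca8 was above Birc5 in DKO (6.68 and 5.00 FPKM) and in TKO retinae (0.94 and 0.68 FPKM). Expressed as a ratio, Incenp stood at 16.1, 9.13 and 5.15 times the mean level of its 3 partners in TKO and at 1.92, 1.87 and 2.76 times in DKO retinae. The shares are a description of transcripts in whole retinae, without a test, and say nothing of how much protein was assembled. Whole retinae do not show the proportions within dividing cells.

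**Figure D2:**
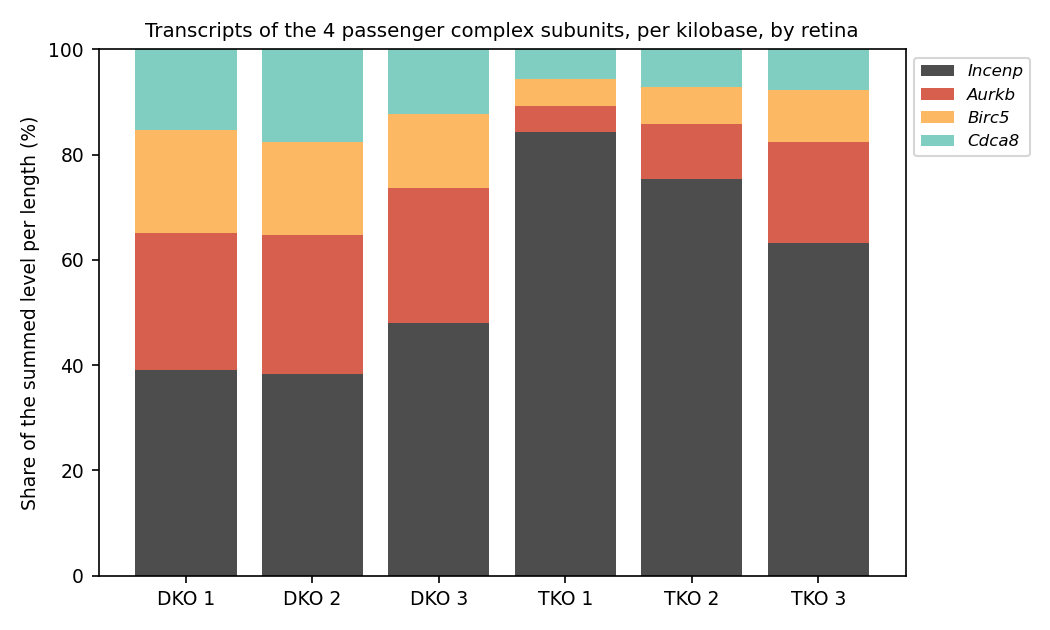
Share (%) of the summed level per length of the 4 passenger complex transcripts in each retina, with 1 stacked bar per retina and 1 colour per gene. Incenp takes between 63.2% and 84.3% of the bar in TKO and between 38.3% and 47.9% in DKO retinae, and the band of Aurkb is thinnest in TKO replicate 1 (4.96%).

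Among the cytokinesis genes, Prc1, the microtubule bundler of the central spindle (chromosome 7, 80294450 to 80316259, plus strand), had 76.8, 97.9 and 210 normalized counts in TKO and 1049, 1060 and 591 in DKO retinae. Its log2 fold change was -2.82 ± 0.371 (SE; edgeR adjusted p = 0.00680), a 7.06-fold lower level and the largest fold of the 4 genes of this step. Exons of Prc1 share 911 bp with Rccd1 on the opposite strand, which had a mean count of 195 and a log2 fold change of -0.27. Racgap1 encodes the GTPase activating subunit of centralspindlin (chromosome 15, 99620496 to 99651656, minus strand). Its values were 194, 245 and 447 in TKO and 1526, 1276 and 756 in DKO retinae, with a log2 fold change of -2.01 ± 0.338 (SE; edgeR adjusted p = 0.00953). It kept 24.9% of the DKO level in TKO retinae, and its call was lost without TKO replicate 2 (edgeR adjusted p = 0.0502).

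Ect2 is the exchange factor that activates RhoA at the equator (chromosome 3, 27097222 to 27153878, minus strand). It had 66.5, 77.9 and 112 normalized counts in TKO and 554, 498 and 284 in DKO retinae. The log2 fold change was -2.39 ± 0.287 (SE), with the smallest adjusted p of the 10 genes (0.00571 from edgeR). Anln encodes anillin, which ties RhoA, actin, myosin and septins together in the ring (chromosome 9, 22332012 to 22389188, minus strand). The TKO retinae had 51.6, 68.4 and 173 and the DKO retinae 675, 518 and 357 normalized counts of Anln. Its log2 fold change was -2.41 ± 0.419 (SE; edgeR adjusted p = 0.0103), and the call was lost without TKO replicate 2 (edgeR adjusted p = 0.0527).

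The retinae kept nearly the same order in every gene. TKO replicate 1 was the lowest of the 6 libraries in all 10 genes, TKO replicate 3 was the highest TKO library in all 10, DKO replicate 3 was the lowest DKO library in all 10, and DKO replicate 1 was the highest of all in 7. The lowest DKO value was between 1.37 and 2.84 times the highest TKO value. Averaged over the 10 genes, log2 levels relative to their mean were -1.81, -1.36 and -0.47 in TKO replicates 1 to 3 and 1.55, 1.42 and 0.67 in DKO replicates 1 to 3. The summed level of the 7 rod markers was highest in TKO replicate 1 (393704 normalized counts), followed by TKO replicates 2 (324039) and 3 (202327), then DKO replicate 3 (129946) and DKO replicates 1 (72848) and 2 (68564). The part of the rod content of a retina in the order was not tested.

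Per length, the DKO retinae held most Tpx2 (14.1 ± 4.71 FPKM), Racgap1 (13.2 ± 4.38) and Incenp (11.5 ± 1.56), and least Birc5 (4.90 ± 1.85), Anln (4.51 ± 1.39) and Cdca8 (4.33 ± 1.60; SD, n = 3 each). Between them stood Prc1 at 8.65, Aurkb at 7.33, Ect2 at 6.54 and Aurka at 5.98 FPKM. For all neighbours in this order the ranges over the 3 DKO retinae overlapped, but all genes were read in the same retinae. Within each DKO retina Tpx2 lay above Racgap1 (18.1 and 17.0, 15.2 and 14.3, 8.90 and 8.45 FPKM in replicates 1, 2 and 3). Racgap1 lay below Incenp in DKO replicate 3 alone (8.45 and 9.76 FPKM). The order within retinae was not tested. In TKO retinae Incenp came first with 6.25 ± 0.78 FPKM, apart from Racgap1 with 3.30 ± 1.49, and the other 8 genes followed from Tpx2 (2.35) to Cdca8 (0.61) with overlapping neighbours. The order depends on the length that is used: with the longest annotated transcript in place of all merged exons, Racgap1 and Prc1 came first in DKO retinae, and Incenp remained first in TKO retinae.

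To set the 10 genes against dividing cells in general, the level of each was divided by an index of 5 genes of cycling cells, Mki67, Top2a, Ccnb1, Cdk1 and Ccna2, all of which were called lower in TKO (log2 fold changes from -3.21 for Top2a to -1.32 for Ccna2). The index, as mean log2 CPM (counts scaled for depth), was 2.96, 3.78 and 4.69 in TKO and 6.91, 6.59 and 5.86 in DKO retinae. Relative to it, the median difference between TKO and DKO over the 10 genes was 0.042 on the log2 scale. The relative difference nearest to 0 was that of Tpx2, -0.0089. The genotypes overlapped for 6 of the 10 genes on this scale, namely Tpx2, Anln, Ect2, Cdca8, Prc1 and Aurkb.

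Relative to the index, 3 genes were higher in every TKO retina than in any DKO retina. For Incenp the relative log2 level was 1.68, 0.88 and 0.26 in TKO and -1.12, -0.90 and -0.46 in DKO retinae, a difference of 1.77. Racgap1 differed by 0.61 and Aurka by 0.56, and Birc5 differed in the other direction by -0.30. An exact two-sided permutation test over the 6 retinae gave p = 0.1 for each of these 4 genes, the smallest p that 3 retinae against 3 allow, and 0.25 after Benjamini-Hochberg adjustment over the 10 genes, so none of these differences could pass 0.05. The choice of index genes mattered, because the median difference was 0.383 without Ccna2, -0.14 without Top2a and -0.061 without Ccnb1. With 1 retina left out it lay between -0.045 (without TKO replicate 1) and 0.16 (without TKO replicate 2), so its sign was not stable. Without Ccna2 the differences of Birc5, Cdca8, Prc1 and Tpx2 were above 0, at 0.043, 0.17, 0.090 and 0.33.

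**Figure D3:**
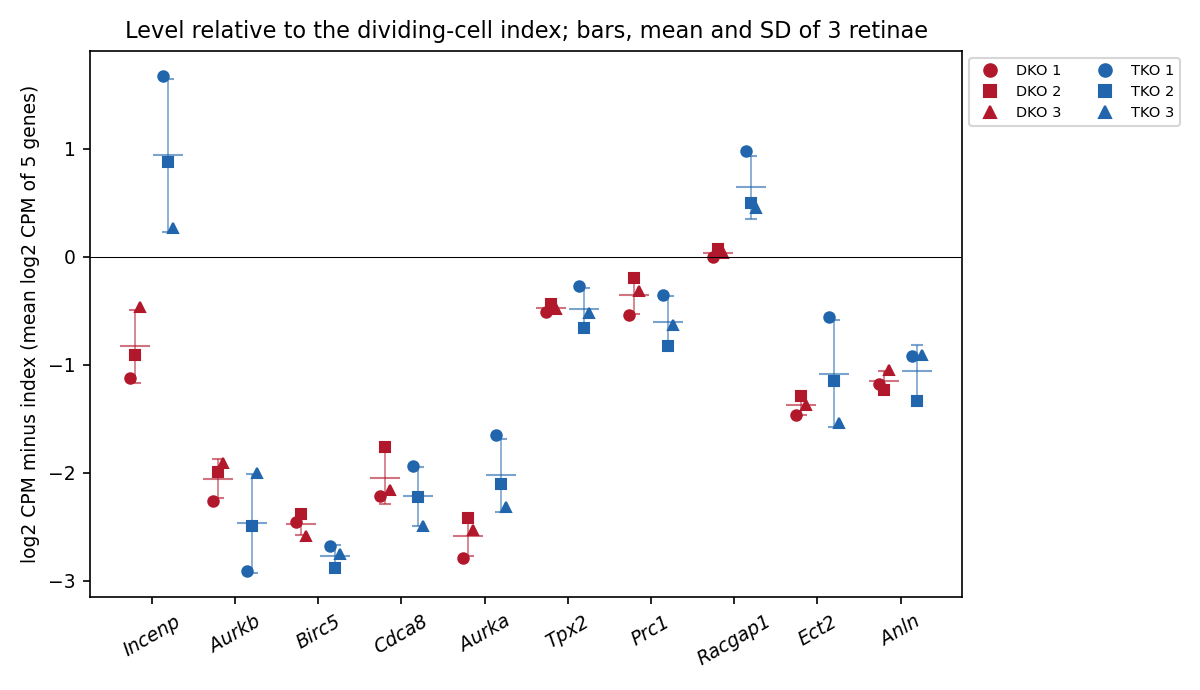
Level of each of the 10 genes relative to the mean of 5 dividing-cell genes (log2) in every retina, with 1 point per retina and bars for the mean and SD of each genotype. Incenp stands apart with 0.26 to 1.68 in TKO and -1.12 to -0.46 in DKO retinae, while the genotypes overlap for 6 genes.

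The other genes of the pathway were read from 5 lists with 61 genes, 60 of which were tested. Across them 18 were called lower and 0 higher, 23 passed the adjusted p of edgeR's test in the lower and 2 in the higher direction, and the median log2 fold change was -0.27. The background was 4.38% of genes called lower and 1.97% called higher, and 9.2% and 7.35% past the adjusted p in these directions. The lists differed: genes that act at centromeres and on the central spindle were mostly called, and those of the contractile ring and of abscission were mostly not.

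In the list for centromere recruitment of the passenger complex, 5 of 6 genes were called lower, with a median log2 fold change of -2.44. The kinase Bub1, whose histone mark recruits the complex, had a log2 fold change of -2.61 (edgeR adjusted p = 0.0119), and Ttk, the checkpoint kinase Mps1, one of -2.34. Without TKO replicate 2 neither was called (adjusted p = 0.0576 for both, edgeR), and without DKO replicates 1 or 2 their adjusted p lay between 0.0524 and 0.0569. Gsg2, the haspin kinase that writes the mark read by survivin, had a log2 fold change of -2.37, and the shugoshins Sgol1 and Sgol2, which guard centromeric cohesion, had -2.85 and -2.51. Rcc2 passed the adjusted p (0.0117 from edgeR) with a log2 fold change of -0.51, but not without DKO replicate 2 (edgeR adjusted p = 0.0557). The haspin and shugoshin genes were chosen after their values were seen.

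On the central spindle 7 of 8 genes were called lower, with a median log2 fold change of -1.75. The kinesins Kif20a and Kif4, which carry the passenger complex and PRC1 to the midzone, had log2 fold changes of -1.36 and -1.93, and Kif20a was not called without TKO replicate 2 (edgeR adjusted p = 0.0503). Kif23, the motor partner of RACGAP1, had a log2 fold change of -2.46 and Plk1, the kinase that primes RACGAP1 for ECT2, one of -2.29, and both were chosen after their values were seen. Cit, the gene of citron kinase, is also expressed in neurons and was the exception with -0.058. Counts per gene do not separate its transcripts. The fitted sign of Cit was positive without TKO replicate 2 and without DKO replicate 1.

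Aurora A cofactors and centrosome partners were split, with 4 of 9 genes called lower and a median log2 fold change of -0.71. The spindle motor Kif11 had a log2 fold change of -2.59. Hmmr, Tacc3 and Bora, partners or activators of Aurora A that were chosen after their values were seen, had log2 fold changes of -2.85, -1.54 and -1.42 and were the other called genes. The most abundant members, the microtubule polymerase Ckap5 and the spindle pole protein Numa1, had log2 fold changes of -0.035 and -0.075, neither of which passed the test.

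In the contractile ring and RhoA pathway, 1 of 17 genes was called, Arhgap11a, a RhoA GTPase activating protein (log2 fold change -2.38). Non-muscle myosin Myh10, septin Sept7 and Rhoa itself had log2 fold changes of -0.20, -0.25 and -0.19, and none passed the test. With library totals as the only scaling, Sept7 (-0.40, edgeR adjusted p = 0.0421) and Rhoa (-0.34, edgeR adjusted p = 0.0421) passed it. Sept9 (-0.92) and Myl12a (-0.56) passed the adjusted p in the lower direction, and the myosin light chain kinase Mylk passed it in the higher direction with 0.98. For abscission and ESCRT-III, the machinery that cuts the last bridge between daughter cells, 1 of 20 genes was called, Cep55 (-2.60), which brings that machinery to the midbody. Its abundant members Ist1, Chmp4b and Vps4a had log2 fold changes of 0.17, 0.041 and 0.12, none of which passed the test, and with library totals as the only scaling those of Chmp4b and Vps4a were below 0. Vps4b (-0.29) passed the adjusted p in the lower and Chmp2a (0.31) in the higher direction. Apart from the abundant members, the genes of both lists were named after their values were seen.

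**Figure D4:**
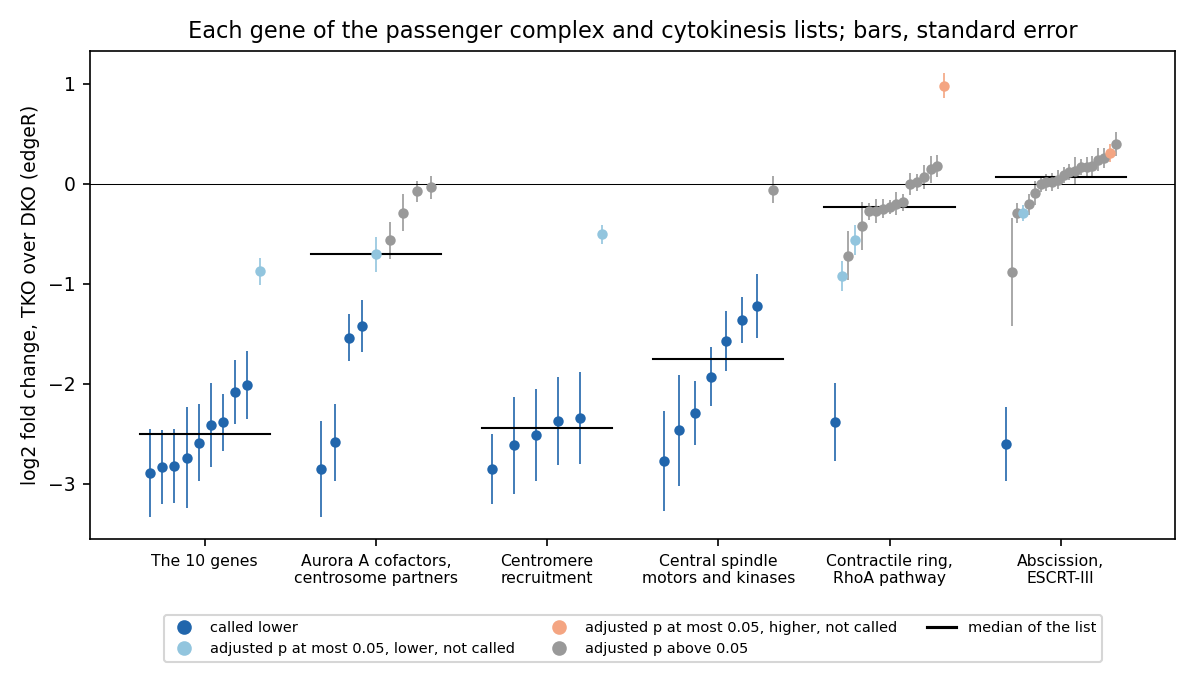
Log2 fold change (TKO over DKO) of the 10 genes and of the genes in the 5 pathway lists, 1 point per gene with its standard error, a line at the median of each list, and colour for the result of the test. The medians lie at -2.50 for the 10 genes, -2.44 for centromere recruitment and -1.75 for the central spindle, and at -0.24 and 0.066 for the contractile ring and abscission.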

How the data were processed

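Libraries were prepared with a stranded poly(A) kit (TruSeq Stranded mRNA) from 6 retinae. The deposited file holds raw counts of read pairs per gene symbol, without normalization. The authors' methods give alignment to GRCm38 with STAR and counting with HTSeq, and allow several alignments per read, whereas the submitters' processing notes list TopHat2, featureCounts and DESeq2 with mm10, so the tool behind the counts and its strand setting are uncertain. Genotype and replicate number came from the sample titles.

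Genes with a sum of at least 10 counts were compared with edgeR 4.0.16 in R 4.3.3 (TMM scaling, quasi-likelihood F test, Benjamini-Hochberg adjustment over 16904 genes), and the thresholds and filter followed the authors. The mean count for the call used size factors of DESeq2 1.42.0, which was also an alternative test. Normalized counts are counts scaled to the mean TMM library size, and each standard error (SE) was derived from the log2 fold change and its F statistic (absolute change over the root of F). Relative levels used log2 CPM with a prior count of 0.5. Of the symbols, 94.6% were found in GENCODE M21 (GRCm38), which gave coordinates and lengths.

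The 10 genes, the pathway, index and marker lists, the motifs and the tests were chosen with earlier results of these data known. Named were the 10 genes, Hells, the index genes, the 3 most abundant genes of each pathway list, any of them called higher, and the 5 genes closest in profile, besides those said to be chosen after their values were seen. Of the rod markers, 1 is not reported here. The markers of 6 other retinal cell types, RPE and endothelium were also read: of these, 2 of 6 cone, 1 of 6 Muller glia and 1 of 6 RPE markers were called higher and 1 of 6 Muller glia markers lower, and 0 of 6 bipolar, 0 of 6 amacrine, 0 of 4 horizontal, 0 of 5 ganglion cell and 0 of 5 endothelial markers were called. Alternatives were DESeq2, other scalings and filters, robust dispersion, the replicate block, each retina left out, other thresholds, lengths and index genes.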

Additional observations from a re-analysis of the deposited data

How the results depend on the processing

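With 1 retina left out, between 6 and 9 of the 10 genes were called lower and between 7 and 10 passed the adjusted p, and their median log2 fold change lay between -3.10 (without TKO replicate 3) and -2.27. Of 150 alternative fits of single genes over all settings, 150 gave a log2 fold change below 0, 135 passed the adjusted p of 0.05 and 15 did not. Of the 15, 10 came from the replicate number as a block, under which 0 of the 10 genes and 0 pathway genes were called, with adjusted p from 0.0566 to 0.0642 for the 10 genes. The deviations of same-numbered retinae correlated by 0.0734, -0.04 and -0.162. Such correlations over all genes cannot show whether same-numbered retinae shared a litter or a batch, so whether the numbers pair the retinae is not known. Over all genes, 1074 were called (741 lower, 333 higher), and the block left 90 (75 lower, 15 higher). With 1 retina left out the number was between 471 and 1500 (312 to 1024 lower, 121 to 476 higher). With no minimum fold change 2721 (1496 lower, 1225 higher) and with an adjusted p of at most 0.01 421 (292 lower, 129 higher) were called. Without a minimum fold change all 10 genes met the criteria, and at an adjusted p of at most 0.01, 7 did. The 18 pathway genes called lower were between 7 and 19 with 1 retina left out and 9 at an adjusted p of at most 0.01, and those called higher between 0 and 1 (Mylk, without replicate 3 of either genotype) and 2 with no minimum fold change. Scaling by library totals moved the median of all genes from -0.011 to -0.17 and the share of lower calls from 69.0% to 79.9%. Reversed fold changes were seen only in genes that did not pass the test: with 1 retina left out, Ckap5 ran from -0.10 to 0.084 (0.0023 without TKO replicate 3), Numa1 from -0.13 to 0.0092, Cit from -0.15 to 0.043 (0.037 without TKO replicate 2) and Chmp4b from -0.030 to 0.10 (-0.027 without DKO replicate 1), and with library totals Chmp4b was at -0.12 and Vps4a at -0.040. The median level of the 10 genes in DKO retinae was 6.94 FPKM, and 9.97 with the longest transcript as length. The median difference relative to the index was 0.042, from -0.045 to 0.16 with 1 retina left out, and 0.383 without Ccna2, -0.14 without Top2a and -0.061 without Ccnb1. The lowest counts, 11 for Aurkb and 13 for Birc5 in TKO replicate 1, limit the precision of these folds. The causes of the changes between settings were not tested.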

Other observations

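The genes outside the 10 whose profile over the 6 retinae lay closest to the mean profile of the 10, among 12893 genes with a mean of at least 50 normalized counts, were Cdca2, Plk1, Cdca3, Arhgap11a and Gtse1. Their root mean square distances from it were 0.0835, 0.0873, 0.0994, 0.101 and 0.103 on the log2 scale. Of the 10 genes themselves, Tpx2 lay closest to that mean profile (0.131), and Incenp (0.848) and Aurkb (0.494) lay farthest. The mean includes each of the 10 genes, and the distances are over 6 libraries.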
